A study of Mus musculus with 14 samples.

Results

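The genes described here encode the T cell coreceptors CD4, CD8α, and CD8β and a set of nuclear proteins linked to their regulation. They are Cd4, Cd8a, Cd8b1, Patz1, Tox, and Ikzf1, and they were chosen by symbol, 6 of the 55450 genes in the annotation. A gene was taken from its named row in each library or, where a library had no such row, from an assembled locus without a name that shared at least 0.8 of the joint span with the gene's mm10 locus. By this rule 5 members had a value in all 14 samples. Patz1 had none in any sample, because the only locus assembled over it also covered its neighbor Gm11944.

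The samples were activated CD4+ T cells of C57BL/6 mice in 2 experiments. In the first, 4 WT samples were compared with 4 HDAC1cKO-HDAC2HET samples (HDAC1f/f HDAC2f/+ CD4-cre+) after 3 days with anti-CD3/anti-CD28 and 20 U/mL IL-2. In the second, spleen CD4+ T cells of 3 WT and 3 HDAC1cKO samples (HDAC1f/f CD4-cre+) were activated for 3 days and restimulated with anti-CD3 for 12 hours. Mice were 6 to 12 weeks old and of both sexes, with littermate controls, per the study's methods. The labels name the Cre transgene only for the mutants, so the deletion and the transgene cannot be told apart, and Cd4 regulatory sequence drives that transgene. Cells of the first experiment had been depleted of CD8α+ cells and sorted as naive CD4+ T cells before culture, per the study's methods. Expression was measured by RNA-Seq and given as FPKM, a level per length of transcript and per depth of the library, so levels of different genes in a sample can be set side by side.

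CD4 and CD8 bind MHC class II and class I molecules, respectively, and carry the kinase LCK to the T cell receptor. CD8 on conventional T cells is a dimer of an α and a β chain encoded by neighboring genes. In CD4+ T cells both CD8 genes are normally silenced. Patz1 (also called MAZR) encodes a zinc finger repressor that binds the Cd8 gene cluster, Tox encodes an HMG-box protein needed for CD4 lineage development, and Ikzf1 encodes Ikaros, a zinc finger protein that works with the histone deacetylase complex NuRD. HDAC1 and HDAC2 are the catalytic subunits of that complex, among others. The comparison asked whether cells with fewer functional Hdac1 and Hdac2 alleles keep the coreceptor pattern of the CD4 lineage.

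The coreceptor genes differ in the short stretch through which LCK binds. The coding sequences of the reference transcripts (GENCODE M21, GRCm38) are shown around this stretch, with capitals for a cysteine codon (TGT or TGC), any codon, a second cysteine codon, and a codon starting with CC, searched in frame on the coding strand. In both genes the stretch shown is joined across an intron.
Cd4, chr6:124866254-124866641, minus strand: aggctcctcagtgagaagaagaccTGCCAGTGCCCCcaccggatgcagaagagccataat
Cd8a, chr6:71374863-71376881, plus strand: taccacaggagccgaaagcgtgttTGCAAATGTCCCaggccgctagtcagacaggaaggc
The stretch began 45 bases before the end of the coding sequence in Cd4 and 66 bases before it in Cd8a. The Cd8b1 coding sequence of 642 bases held no such stretch. Thus Cd8b1 mRNA, the more abundant CD8 message in every sample below, lacks these codons and Cd8a mRNA has them.

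The targeted genes matched the labels. Hdac1 was 78.1 ± 1.44 FPKM (SD, n = 4) in WT and 8.30 ± 1.89 (n = 4) in HDAC1cKO-HDAC2HET cells, and 75.6 ± 4.78 (n = 3) in WT and 10.1 ± 1.82 (n = 3) in HDAC1cKO cells. Hdac2 was 59.0 ± 1.04 FPKM in WT and 35.4 ± 1.36 in HDAC1cKO-HDAC2HET cells. After restimulation Hdac2 was 72.4 ± 8.65 and 80.4 ± 6.91 FPKM, and the groups overlapped. Depth, estimated from the confidence bounds in the files, was between 22600000 and 53200000 fragments a library. All 8 libraries of the first experiment had Xist above 1 FPKM, whereas in the second 2 of 3 WT and 0 of 3 HDAC1cKO libraries did, so sex was not balanced there.

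Cd8a and Cd8b1 were higher and Cd4, Tox, and Ikzf1 lower in HDAC1cKO-HDAC2HET than in WT CD4+ T cells. Each of these genes passed at an adjusted p of at most 0.05 (limma, Benjamini-Hochberg adjustment over 15131 genes), as did 51.8% of all genes tested, 24.2% higher and 27.6% lower. With a fold change of at least 2 required as well, Cd8a and Cd8b1 were called, against 5.59% of all genes called higher. Cd8a averaged 0.0581 and 0.0535 FPKM in the WT groups, below the mean of 0.1 FPKM a gene needed to be tested. It thus entered both fits only through its mutant samples, and a gene that enters this way can in practice only be called higher. In HDAC1cKO cells none of the 5 measured members passed (13 of 14025 genes, 0.0927%, did), and 3 of them, Cd8a, Cd8b1, and Tox, had an unadjusted p under 0.05, as did 14.2% of all genes. Those 3 genes differed in the same direction in both experiments, and in both their groups did not overlap, as was the case for 50.3% of all genes in the first and 22.3% in the second experiment.

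**Figure D1:**
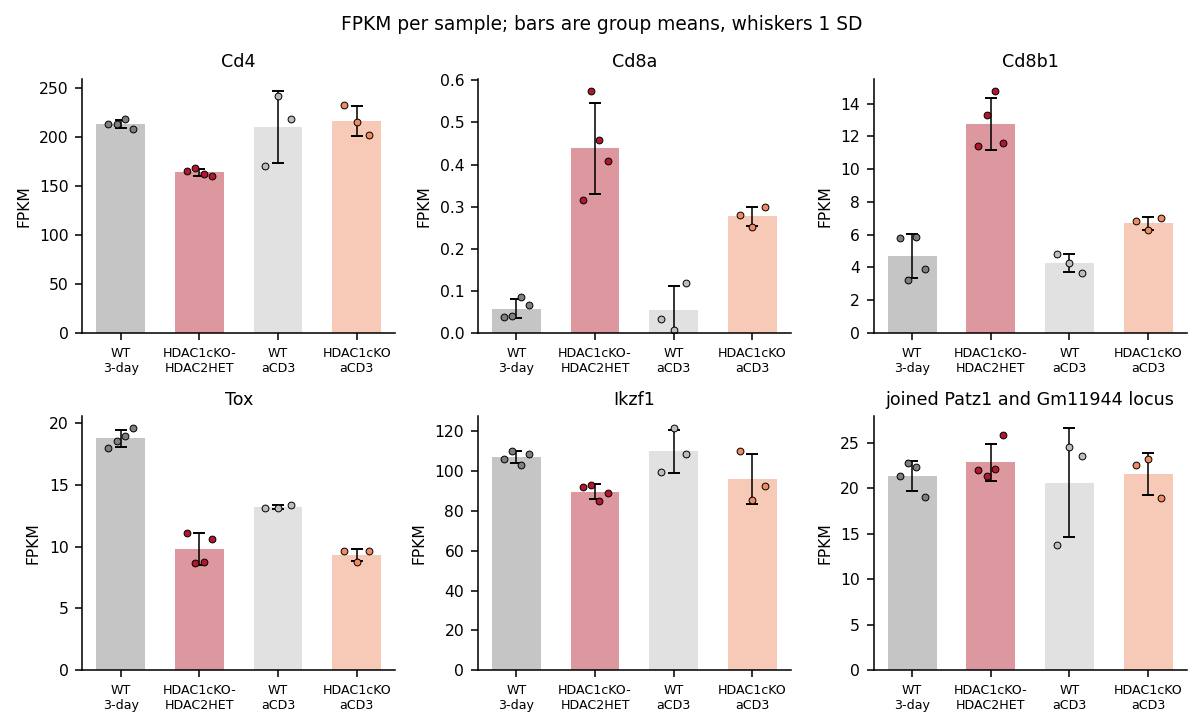
FPKM (vertical axes, from 0) of the 5 measured members and of the locus joining Patz1 with Gm11944 in each of the 14 samples (points), with the group mean (bar) and 1 SD (whisker). Cd8a and Cd8b1 are higher in both mutant groups than in their WT groups, Tox is lower in both, and Cd4 is lower only in the HDAC1cKO-HDAC2HET group, where its 4 samples sit between 160 and 168 FPKM.

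Cd4, the coreceptor gene of the lineage, was an abundant message in every library. In WT cells of the first experiment it was 213, 213, 218, and 208 FPKM, and in HDAC1cKO-HDAC2HET cells it was 165, 168, 162, and 160 FPKM. The groups did not overlap, and each varied by only about 2% (coefficients of variation of 1.85% and 2.06%). The mutant mean was 0.770 times the WT mean (exact permutation test, 2-sided, p = 0.0286, the smallest that 4 against 4 samples allow). The log2 difference was -0.38 ± 0.03 (SE; limma, adjusted p = 1.64e-05).

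In the second experiment Cd4 was 170, 242, and 218 FPKM in WT and 232, 215, and 202 FPKM in HDAC1cKO cells. Here the groups overlapped, and the WT samples both began and ended the range. The log2 difference was 0.06 ± 0.14 (limma, adjusted p = 0.890), with a 95% confidence interval of -0.30 to 0.41. Its sign rested on WT replicate 1, without which the value was -0.09. The difference between both experiments' changes was -0.43 ± 0.13 (limma over all 14 samples, adjusted p = 0.0442), a contrast that 15.7% of 12362 genes passed. It did not pass when any 1 sample of the first experiment or HDAC1cKO replicate 1 or 2 was left out. Over these 14 fits the adjusted p lay between 0.00914 and 0.103 (limma). With a sex covariate the value was -0.21. In the second experiment only WT replicate 2 shared its Xist state with the HDAC1cKO samples. The covariate thus set those samples against this library alone, and it cannot separate sex from that library.

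Libraries of mutant cells also held assembled loci without a name at the Cd4 gene that were not assembled in any of the 7 WT libraries. One lay 54 to 371 bases upstream of the first base of Cd4, within chr6:124888275-124888592. Its level was 81.7, 80.1, and 111 FPKM in HDAC1cKO-HDAC2HET replicates 1 to 3 and 41.1, 31.4, and 28.7 FPKM in the HDAC1cKO samples. Another began in the second exon and ran into the first intron (chr6:124879657-124882902 in replicate 1), with 20.3, 27.0, and 23.4 FPKM in the same 3 HDAC1cKO-HDAC2HET libraries and in no HDAC1cKO library. HDAC1cKO-HDAC2HET replicate 4 had neither locus, and its Cd4 value of 160 FPKM was close to that of the other 3. The Cd4 locus itself spanned the same bases in all 14 libraries, but its confidence bounds differed. They correspond to 26073 to 38272 fragments in WT libraries of the first experiment and 29076 in HDAC1cKO-HDAC2HET replicate 4. In HDAC1cKO-HDAC2HET replicates 1 to 3 they correspond to 2152, 2147, and 1978 fragments, and in the second experiment to 2097 to 2188. Whether this difference affects the Cd4 values was not tested. Whether the loci without a name come from the Cd4-Cre transgene was not tested either.

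The CD8 genes lie side by side on chromosome 6, Cd8b1 at chr6:71322788-71337494 and Cd8a at chr6:71373427-71379173, both on the plus strand. Cd8b1, encoding the β chain, was 5.81, 3.24, 5.87, and 3.92 FPKM in WT and 11.4, 13.3, 14.8, and 11.6 FPKM in HDAC1cKO-HDAC2HET cells. Every mutant sample was above every WT sample. The mutant mean was 2.71 times the WT mean (exact permutation test, p = 0.0286), and the log2 difference was 1.45 ± 0.20 (limma, adjusted p = 5.78e-04).

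In the second experiment Cd8b1 was 4.83, 4.30, and 3.68 FPKM in WT and 6.80, 6.27, and 7.00 FPKM in HDAC1cKO cells. The groups did not overlap, and the ratio of the means was 1.57 (exact permutation test, p = 0.1, the smallest that 3 against 3 samples allow). The log2 difference of 0.64 ± 0.14 did not pass in the fit over all genes (limma, adjusted p = 0.182, 95% confidence interval 0.31 to 0.97). The difference between the experiments' changes was 0.81 ± 0.27 (limma, adjusted p = 0.0608), and it passed without WT replicate 1 (adjusted p = 0.0392) or 3 (adjusted p = 0.0368) of the first experiment.

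Cd8a, encoding the α chain, was near the lower limit of detection in WT cells. Its level was 0.0390, 0.0408, 0.0858, and 0.0668 FPKM in WT and 0.315, 0.574, 0.459, and 0.407 FPKM in HDAC1cKO-HDAC2HET cells. The bounds in the files correspond to between 4.1 and 8.3 fragments in each WT and between 33.2 and 78.6 in each mutant library. Again every mutant sample was above every WT sample, and the mutant mean was 7.56 times the WT mean (exact permutation test, p = 0.0286).

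On the log2(FPKM + 0.1) scale, which understates the change of such a low gene, the Cd8a difference was 1.76 ± 0.20 (limma, adjusted p = 1.85e-04). It was 0.44 with a pseudocount of 1 and 2.75 with a pseudocount of 0.01. WT cells averaged below the filter of 0.1 FPKM, so Cd8a entered the fits only through the mutant samples.

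HDAC1cKO cells had 0.279, 0.252, and 0.299 FPKM of Cd8a, against 0.0328, 0.00820, and 0.120 FPKM in their WT samples. The WT values correspond to between 0.5 and 9.2 fragments a library. The groups did not overlap, with a ratio of the means of 5.17 (exact permutation test, p = 0.1, the smallest possible), and the log2 difference was 1.36 ± 0.36 (limma, adjusted p = 0.221). The change did not differ detectably between the experiments (0.40 ± 0.36, 95% confidence interval -0.39 to 1.19, limma adjusted p = 0.513), and without WT replicate 3 of the second experiment the value was 0.11. Another fit took both experiments together with 1 shared estimate of the spread. In it Cd8a (limma, adjusted p = 0.00965) and Tox (adjusted p = 0.00721) passed in HDAC1cKO cells, with their differences unchanged. The share of all genes passing in that joint fit was not counted, so these calls cannot be set beside it.

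**Figure D2:**
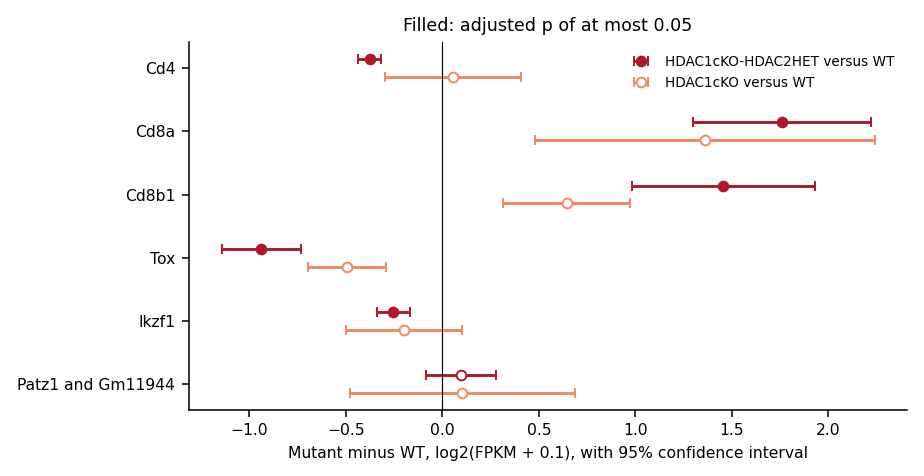
Mutant minus WT difference of each member on the log2(FPKM + 0.1) scale (horizontal axis) with its 95% confidence interval, for the HDAC1cKO-HDAC2HET (dark) and HDAC1cKO (light) comparisons. Filled symbols have an adjusted p of at most 0.05. The interval of Cd8a in HDAC1cKO cells runs from 0.48 to 2.24, whereas that of Cd4 spans 0.

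Cd8b1 exceeded Cd8a in all 14 libraries. Per length, Cd8b1 was 58.7 to 149 times Cd8a in WT and 23.2 to 36.2 times Cd8a in HDAC1cKO-HDAC2HET cells, so the mutants sat below the whole WT range. As a share of the Cd8b1 level, Cd8a was 1.27% ± 0.44 in WT and 3.43% ± 0.67 in HDAC1cKO-HDAC2HET cells (SD, n = 4 each). With 0.1 added to both values, however, the log2 ratio of Cd8a to Cd8b1 was -4.89 ± 0.40 in WT and -4.59 ± 0.22 in mutant cells, and the groups overlapped (difference 0.30, exact permutation test, p = 0.229). The difference became 1.27 with a pseudocount of 0.01 (exact permutation test, p = 0.0286) and -0.85 with a pseudocount of 1 (the same p). A pseudocount of 1 exceeds every Cd8a value, so that ratio mostly follows Cd8b1 and does not compare the changes of both genes. Between the other settings, whether the 2 CD8 genes changed unequally depended on the value added to both. The ratios without an added value lay apart, and with 0.1 added, more than most WT values of Cd8a, they overlapped.

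HDAC1cKO cells had nearly constant proportions, with Cd8b1 at 24.4, 24.9, and 23.4 times Cd8a. In their WT samples it was 147, 525, and 30.8 times Cd8a, with between 0.5 and 9.2 fragments of Cd8a in each library. The difference in the log2 ratio was 0.72 (exact permutation test, p = 0.4).

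**Figure D3:**
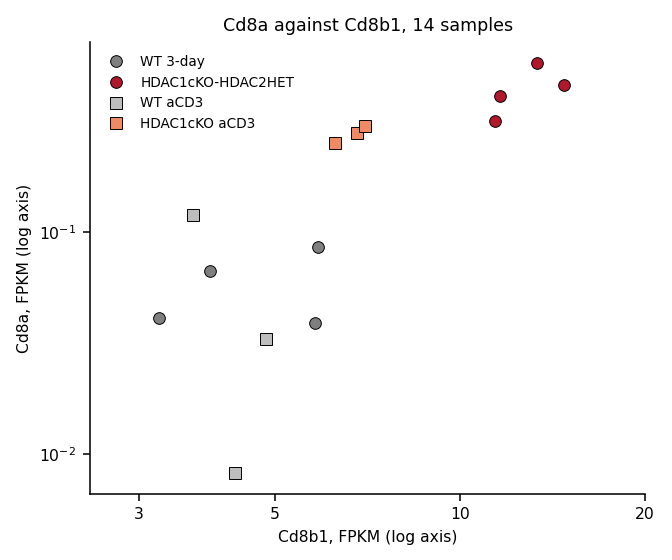
FPKM of Cd8a against that of Cd8b1 in the 14 samples, both on log axes, with circles for the first and squares for the second experiment. The 4 HDAC1cKO-HDAC2HET samples sit at the upper right, above 11 FPKM of Cd8b1, the 3 HDAC1cKO samples sit between them and the WT samples, and the WT values of Cd8a scatter between 0.00820 and 0.120 FPKM.

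The balance of the coreceptor messages shifted but did not invert. In WT cells of the first experiment Cd4 was 5463, 5212, 2539, and 3116 times Cd8a, and in HDAC1cKO-HDAC2HET cells it was 523, 293, 353, and 394 times Cd8a. The log2 ratio with 0.1 added to both fell by 2.14 (exact permutation test, p = 0.0286), with no overlap. Measured against Cd8b1, Cd4 was 36.6 to 65.7 times Cd8b1 in WT and at most 14.5 times Cd8b1 in HDAC1cKO-HDAC2HET cells. In HDAC1cKO cells the log2 ratio of Cd4 to Cd8a was 1.30 lower than in WT (9.17 ± 0.16 against 10.5 ± 0.60, exact permutation test, p = 0.1, the smallest possible). With a pseudocount of 1 the differences were -0.82 and -0.22.

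The Cd8a promoter window of RefSeq is shown because Cd8a changed in HDAC1cKO-HDAC2HET cells and was the only coreceptor gene with an entry in the promoter table. It covers the 250 bases before the gene's first base (GRCm38.p6, chr6:71373177-71373426, plus strand), and capitals mark the only match among the motifs searched on both strands, the core TGGGAA of Ikaros sites on the minus strand.
Cd8a promoter: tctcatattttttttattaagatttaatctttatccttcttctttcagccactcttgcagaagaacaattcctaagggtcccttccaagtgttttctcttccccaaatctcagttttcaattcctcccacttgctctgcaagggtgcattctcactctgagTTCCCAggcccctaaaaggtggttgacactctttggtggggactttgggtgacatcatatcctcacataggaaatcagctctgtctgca
The match began 89 bases before the gene. Of 32851 promoter windows of this length, 21.6% held TGGGAA. The RUNX cores TGTGGT and TGCGGT and the GATA core AGATAA had no match, and 14.05%, 5.10%, and 9.99% of all windows held them.

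Tox, needed for CD4 lineage development in the thymus, was lower in both mutants. It was 18.0, 18.5, 18.9, and 19.5 FPKM in WT and 11.1, 8.68, 8.72, and 10.6 FPKM in HDAC1cKO-HDAC2HET cells, with no overlap. The mutant mean was 0.522 times the WT mean (exact permutation test, p = 0.0286), and the log2 difference was -0.94 ± 0.09 (limma, adjusted p = 7.71e-05). After restimulation Tox was 13.1, 13.1, and 13.4 FPKM in WT and 9.61, 8.74, and 9.64 FPKM in HDAC1cKO cells. The groups did not overlap, the ratio of the means was 0.708 (exact permutation test, p = 0.1, the smallest possible), and the log2 difference of -0.50 ± 0.08 did not pass (limma, adjusted p = 0.137).

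The change of Tox differed between the experiments by -0.44 ± 0.12 (limma, adjusted p = 0.0282). With a sex covariate, which rests on WT replicate 2 of the second experiment alone, the value was -0.45. The difference did not pass without WT replicate 3 or 4 or HDAC1cKO-HDAC2HET replicate 2 of the first experiment. Nor did it pass without HDAC1cKO replicate 1 or 3 (limma, adjusted p between 0.0112 and 0.0626 over the 14 fits). The mutant groups of both experiments overlapped in level, at 9.78 ± 1.27 and 9.33 ± 0.51 FPKM, whereas their WT groups lay apart, at 18.7 ± 0.66 and 13.2 ± 0.17 FPKM. An antisense gene, Gm11802, overlaps Tox, and the strand setting used to quantify reads was not given in the sources used here.

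Ikzf1 was an abundant message with a small decrease. It was 106, 110, 103, and 108 FPKM in WT and 91.7, 92.9, 84.9, and 88.9 FPKM in HDAC1cKO-HDAC2HET cells, and the groups did not overlap. The mutant mean was 0.839 times the WT mean (exact permutation test, p = 0.0286), with a log2 difference of -0.25 ± 0.04 (limma, adjusted p = 6.78e-04). In the second experiment it was 99.4, 121, and 108 FPKM in WT and 110, 85.3, and 92.6 FPKM in HDAC1cKO cells. These groups overlapped, and the log2 difference was -0.20 ± 0.12 (limma, adjusted p = 0.510), with a 95% confidence interval of -0.50 to 0.10. Gm11999 and the antisense Gm12000 overlap Ikzf1.

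Patz1 (chr11:3288874-3309083, plus strand) could be followed only through the locus that joins it with Gm11944 (chr11:3308996-3320722, plus strand), which shares 0.622 to 0.635 of the joint span with Patz1 and was taken up after its values had been seen. This locus was 21.3, 22.7, 22.3, and 19.1 FPKM in WT and 22.0, 21.3, 22.1, and 25.9 FPKM in HDAC1cKO-HDAC2HET cells. In the second experiment it was 13.7, 24.6, and 23.5 FPKM in WT and 22.5, 23.2, and 18.9 FPKM in HDAC1cKO cells. The groups overlapped in both experiments. Added to the fits, it gave log2 differences of 0.09 ± 0.08 (limma, adjusted p = 0.355, 95% confidence interval -0.09 to 0.28) and 0.10 ± 0.24 (limma, adjusted p = 0.873, interval -0.48 to 0.69). The intervals leave room for changes of Patz1 in either direction, and the part of the signal that belongs to Gm11944 was not separated.

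Across the 4 groups the order of mean levels differed from gene to gene. These levels come from 2 experiments that also differ in culture, sex balance, and named rows, so the order does not separate genotype from these. For Cd8a and Cd8b1 both WT groups came lowest and overlapped, followed by HDAC1cKO and then HDAC1cKO-HDAC2HET, each apart from the group before it. The difference between the experiments' changes passed for neither CD8 gene (limma, adjusted p = 0.513 for Cd8a and 0.0608 for Cd8b1). For Tox the mutant groups came lowest and overlapped. For Cd4 only the HDAC1cKO-HDAC2HET group lay apart from its neighbor, and for Ikzf1 and the joined Patz1 locus every pair of neighboring groups overlapped.

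Other regulators of the coreceptor genes were given by a list of 20 genes, of which 19 were tested. In HDAC1cKO-HDAC2HET cells 6 rose and 6 fell, beside 24.2% higher and 27.6% lower of all genes, with a median log2 difference of -0.08, beside a median of -0.05 over all genes tested. Runx3, which silences Cd4 and activates Cd8 genes in CD8+ T cells, rose from 15.5 to 48.0 FPKM (log2 difference 1.59 ± 0.17, limma, adjusted p = 1.36e-04). Zbtb7b, encoding ThPOK, which represses Cd8 genes and Runx3 in CD4+ T cells, fell from 33.9 to 23.0 FPKM (-0.56 ± 0.04, limma, adjusted p = 2.95e-05). Runx1 fell from 10.9 to 5.90 FPKM, and its partner Cbfb from 76.2 to 56.1 FPKM.

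The chromatin organizer Satb1 rose from 61.3 to 146 FPKM (1.24 ± 0.08, limma, adjusted p = 1.05e-05). Chd4, the NuRD ATPase that acts at the Cd4 gene, rose from 118 to 164 FPKM, and Tcf3, Zbtb7a, and Smarce1 rose as well, with log2 differences of 0.46, 0.42, and 0.22. Lef1, which acts with Tcf7 in T cell development, fell from 69.6 to 41.0 FPKM, and Bcl11b and Tcf12 fell with log2 differences of -0.37 and -0.43. Tcf7, Gata3, Myb, Mta2, Dnmt1, Ets1, and Smarca4 did not pass, and Socs1 was not tested.

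In HDAC1cKO cells 0 of the 19 regulators passed (limma), beside 0.0927% of all genes, and 1 had an unadjusted p under 0.05, beside 14.2%. Their median log2 difference was -0.06, beside -0.03 over all genes tested. Runx3 was 24.2 in WT and 29.4 FPKM in HDAC1cKO cells (0.28 ± 0.08, adjusted p = 0.244), and Zbtb7b was 28.1 and 24.4 FPKM (-0.18 ± 0.16, adjusted p = 0.617). The changes of 5 regulators differed between the experiments, beside 15.7% of all genes. Of these Runx3 (1.31, limma, adjusted p = 0.00196) and Satb1 (1.14, adjusted p = 1.58e-04) differed most.

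**Figure D4:**
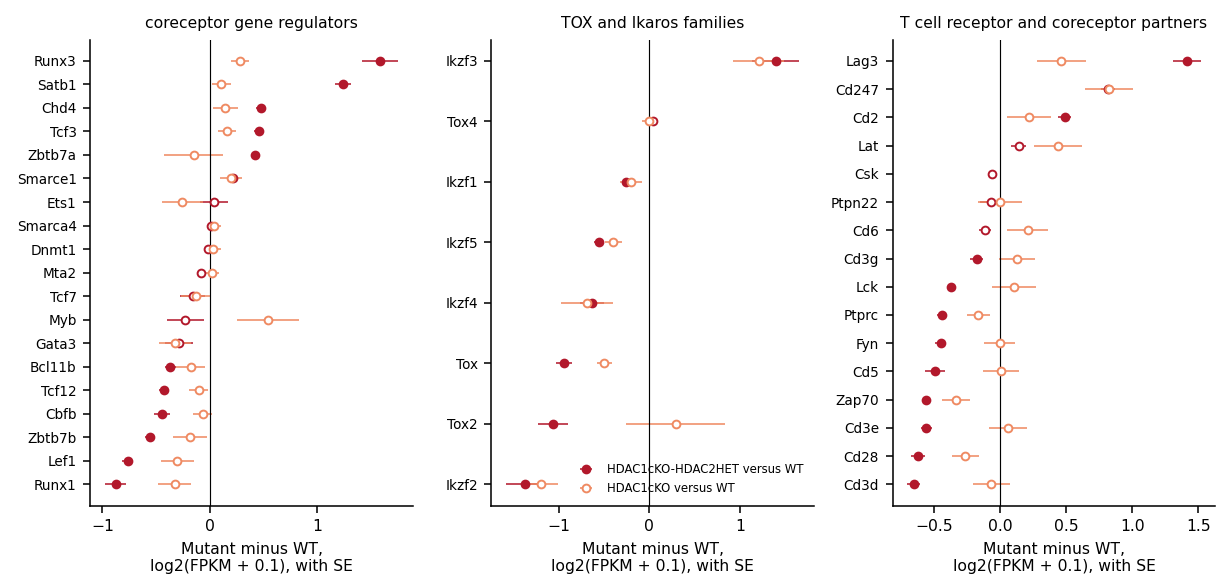
Mutant minus WT difference on the log2(FPKM + 0.1) scale (horizontal axes) with its standard error for the tested genes of 3 lists, ordered by the HDAC1cKO-HDAC2HET comparison (dark), with the HDAC1cKO comparison (light) on the same line. Filled symbols have an adjusted p of at most 0.05, which no gene of these lists reached in HDAC1cKO cells. Runx3 and Satb1 lie farthest right among the regulators and Ikzf3 among the TOX and Ikaros families.

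The TOX and Ikaros families, Tox and Ikzf1 included, did not follow 1 direction. Of 9 members of the TOX and Ikaros families, 8 were tested, and in HDAC1cKO-HDAC2HET cells 6 fell, among them Tox and Ikzf1 themselves, 1 rose, and 1 did not pass, beside 27.6% lower and 24.2% higher of all genes. The median log2 difference was -0.59, beside -0.05 over all genes. Ikzf3, encoding Aiolos, rose from 3.28 to 8.52 FPKM (1.40 ± 0.26, limma, adjusted p = 0.00265). Ikzf2, encoding Helios, fell from 0.705 to 0.213 FPKM (-1.37 ± 0.21, adjusted p = 9.74e-04), and Ikzf4, Ikzf5, and Tox2 fell with log2 differences of -0.63, -0.55, and -1.06. Tox4 did not pass (log2 difference 0.05 ± 0.03, adjusted p = 0.264), and Tox3 was not tested.

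In HDAC1cKO cells 0 of these 8 passed (limma), and 4, Tox included, had an unadjusted p under 0.05, beside 14.2% of all genes. Ikzf3 was 1.85 in WT and 4.42 FPKM in HDAC1cKO cells (1.21 ± 0.28, adjusted p = 0.200), and Ikzf2 was 1.40 and 0.553 FPKM (-1.20 ± 0.19, adjusted p = 0.134).

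Partners of the coreceptors at the T cell receptor were given by 16 genes, all tested in the first experiment. In HDAC1cKO-HDAC2HET cells 9 fell and 3 rose, beside 27.6% lower and 24.2% higher of all genes, with a median log2 difference of -0.28 beside -0.05 over all genes. Lck, the kinase bound by CD4 and CD8α, fell from 285 to 220 FPKM (-0.37 ± 0.03, limma, adjusted p = 2.58e-05), a value close to that of Cd4. Zap70, the kinase downstream of LCK, fell from 138 to 93.8 FPKM. The receptor chains Cd3d, Cd3e, and Cd3g fell with log2 differences of -0.65, -0.56, and -0.18, whereas Cd247, encoding the ζ chain, rose from 75.4 to 133 FPKM (0.82 ± 0.05, adjusted p = 1.33e-05). Lag3, a CD4-related inhibitory receptor for MHC class II, rose from 57.0 to 152 FPKM (1.41 ± 0.10, adjusted p = 2.20e-05).

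Cd28, Cd5, Fyn, and Ptprc fell as well and Cd2 rose, whereas Lat, Cd6, Csk, and Ptpn22 did not pass. In HDAC1cKO cells 0 of the 15 tested partners passed (limma), beside 0.0927% of all genes. An unadjusted p under 0.05 was found for 4 of them, beside 14.2% of all genes, and the median log2 difference was 0.06. Cd247 was 80.3 in WT and 141 FPKM in HDAC1cKO cells (0.82 ± 0.18, adjusted p = 0.189).

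Genes near the coreceptor loci were described by the protein-coding genes within 200 kb. Of 18 tested around Cd4, among which Atn1 and Gm45234 shared 1 assembled locus and therefore 1 value, 9 rose and 5 fell in HDAC1cKO-HDAC2HET cells, beside 24.2% higher and 27.6% lower of all genes, with a median log2 difference of 0.12. Gpr162, which lies 0.7 kb from Cd4, rose from 1.05 to 3.21 FPKM (1.52 ± 0.12, limma, adjusted p = 3.39e-05). Lag3 lies 16.1 kb from Cd4 on the other side and rose, as given above. Cd4 thus fell between flanking genes that rose. Mlf2 rose by 0.78 and Pianp by 2.29 on the log2 scale, the latter from 0.128 FPKM.

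Around the CD8 genes 6 neighbors were tested, of which 4 fell and 1 rose in HDAC1cKO-HDAC2HET cells, beside the same shares of all genes (27.6% lower, 24.2% higher), with a median log2 difference of -0.30. Rmnd5a, 9.5 kb from Cd8a, fell from 26.6 to 18.3 FPKM (-0.54 ± 0.05, limma, adjusted p = 9.50e-05), and Krcc1, 37.5 kb from Cd8b1, fell from 32.6 to 20.02 FPKM (-0.70 ± 0.03, adjusted p = 2.00e-06). Smyd1, which lies 0.6 kb from Cd8b1 on the other strand, rose from 0.0416 to 0.222 FPKM (1.13 ± 0.28, adjusted p = 0.0108), and it too entered the fit only through the mutant samples. In HDAC1cKO cells 0 of 19 neighbors of Cd4 and 0 of 4 neighbors of the CD8 genes passed (limma), beside 0.0927% of all genes. An unadjusted p under 0.05 was found for 4 and 1 of them, beside 14.2% of all genes.

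**Figure D5:**
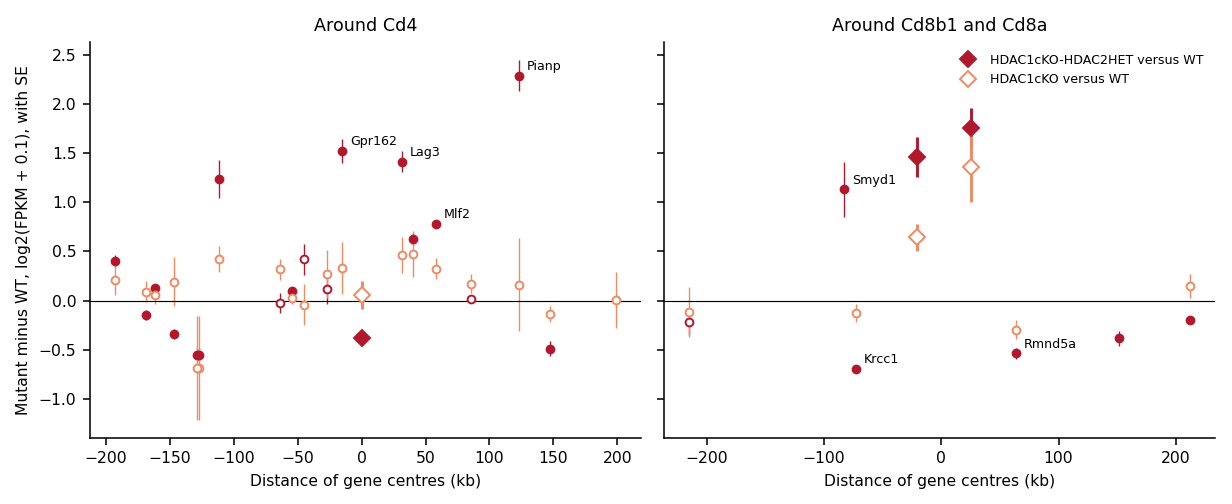
Mutant minus WT difference on the log2(FPKM + 0.1) scale (vertical axis) with its standard error for protein-coding genes (circles) by the distance of their centers, in kb, from the center of Cd4 (left) or of the Cd8b1 and Cd8a cluster (right). Diamonds are the coreceptor genes, dark symbols the HDAC1cKO-HDAC2HET and light symbols the HDAC1cKO comparison, and filled symbols have an adjusted p of at most 0.05. Cd4 lies below 0 between Gpr162 and Lag3, and Cd8b1 and Cd8a lie above Krcc1 and Rmnd5a.

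Genes most like each member over the 14 samples were found by Pearson's r of log2(FPKM + 0.1) among 9322 protein-coding genes, as a description of samples that share genotype and culture. For Cd8a they were Txndc17 (r = 0.969), Ly6c1 (r = 0.968), and Carmil1 (r = 0.963). Ly6c1, encoding a surface antigen of memory CD8+ T cells, averaged 0.435, 49.4, 0.270, and 12.8 FPKM in WT, HDAC1cKO-HDAC2HET, restimulated WT, and HDAC1cKO cells. For Cd8b1 they were Pde4a (r = 0.971), Adssl1 (r = 0.963), and Clip2 (r = 0.962). For Cd4 they were Rab5b (r = 0.977), 2900026A02Rik (r = 0.973), and Decr1 (r = 0.949).

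For Tox they were Zfp740 (r = 0.981), Mbtd1 (r = 0.976), and Zfp654 (r = 0.973), and for Ikzf1 they were Ift80 (r = 0.963), Bcl2l11 (r = 0.936), and Mbd4 (r = 0.926). Bcl2l11, encoding the proapoptotic protein BIM, averaged 24.4, 13.3, 25.2, and 18.2 FPKM in the same order of groups.

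Apart from Bst2 and, in mutant cells, Eomes, markers of other cell types were low beside those of T cells. The 7 T cell markers summed to 1551 to 1664 FPKM in WT and 1371 to 1418 FPKM in HDAC1cKO-HDAC2HET cells, and to 1224 to 1488 and 1336 to 1510 FPKM in the second experiment. Conventional dendritic cells of type 1 express Cd8a without Cd8b1, and 4 of their 5 markers had values in all samples. These summed to 0.598 to 1.08 FPKM in WT and 2.17 to 2.96 FPKM in HDAC1cKO-HDAC2HET cells, and to 1.62 to 3.20 and 2.11 to 3.74 FPKM in the second experiment. Zbtb46 made up most of the sum, whereas Clec9a was listed at 0 in all 8 samples of the first experiment and Xcr1, Flt3, and Itgax reached at most 0.117, 0.107, and 0.0184 FPKM in any sample.

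Among the B cell markers, Cd79b reached at most 0.376 FPKM in WT and 3.26 FPKM in HDAC1cKO-HDAC2HET cells, and 0.483 and 0.778 FPKM in the second experiment. Cd79a and Ms4a1 reached at most 0.772 and 0.123 FPKM in any sample. The part of these markers in the changes of the members was not tested. Of 5 NK cell markers, 4 had values and summed to 2.06 to 4.62 FPKM in WT and 33.5 to 45.7 FPKM in HDAC1cKO-HDAC2HET cells, and to 3.79 to 11.4 and 34.0 to 41.6 FPKM in the second experiment. Nearly all of this was Eomes, which activated T cells also express, and Klra8 was listed at 0 throughout. The plasmacytoid dendritic cell sum (3 of 4 markers) was 78.2 to 118 FPKM in WT and 214 to 322 FPKM in HDAC1cKO-HDAC2HET cells, and 107 to 229 and 273 to 357 FPKM in the second experiment, nearly all of it Bst2, an interferon-induced gene. Myeloid markers summed to at most 0.571 FPKM in any library, and 3 of 4 invariant or γδ T cell markers to at most 1.11 FPKM, with the other, Trdc, at up to 0.468 FPKM in WT cells of the first experiment. CD8+ T cells share their markers with the members, so a few CD8+ T cells and low expression in all cells cannot be told apart in bulk RNA, nor can fewer cells of a type and less RNA per cell.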

How the data were processed

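RNA-Seq libraries (TruSeq Stranded mRNA, 50-bp single reads) of 4, 4, 3, and 3 samples were analyzed. The authors mapped reads to mm10 with TopHat 2.0.13 and assembled and quantified each library with Cufflinks 2.2.1, and deposited FPKM values with confidence bounds. The paper cites an earlier study for the HDAC1cKO comparison, and the named rows differed between the experiments. The named row of Cd8b1 spanned chr6:71322788-71337494 in the first and chr6:71322836-71337477 in the second. The submitters' processing notes list STAR 2.5.2b and Subread 1.5.1 instead, but the loci carry Cufflinks names. FPKM was already scaled to depth and transcript length. Depth was estimated from the bounds of low genes, of which 83.5% to 88.8% gave whole fragments within 0.05. Fragment numbers given for Cd8a and Cd4 come from each gene's own bounds, and those of Cd8a cover counting error only.

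Members and gene lists were chosen with earlier results of these data known. Groups came from the labels. Each experiment was fitted by limma (version 3.58.1, under R 4.3.3) to log2(FPKM + 0.1) with a variance trend, over genes with a mean of at least 0.1 FPKM. Fold changes on this scale understate low genes. P-values were adjusted by Benjamini-Hochberg over all genes tested. The difference between experiments was a contrast over 14 samples. Single values were tested by 2-sided exact permutation over samples. A figure legend of the study describes the samples of the first experiment as independent batches, all prepared on the same day. For the second this was not given in the sources used here, and p-values there measure only the spread between samples, which may be technical. The named genes were the members, genes of the lists, protein-coding genes within 200 kb of the coreceptor loci, the 3 genes most like each member, and Hdac1 and Hdac2. Alternatives changed the pseudocount, filter, scaling, variance model, weights, sex covariate, joint fit, replicate block, row source, and each sample, and the joined Patz1 locus was added after seeing the data. Same-numbered samples did not deviate together (correlations between -0.01 and 0.04), so the replicate numbers were not taken as pairs. Scripts were tested on simulated data. Sequences came from GENCODE M21 transcripts and a RefSeq promoter table, which lists promoters of Cd8a, Patz1, and Ikzf1 among the members. Part of the B cell marker list is not reported here.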

Additional observations from a re-analysis of the deposited data

Results flagged for a closer look

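The change of a gene, mutant minus WT on the log2(FPKM + 0.1) scale, differed between the 2 experiments for 21 of the members, targeted genes, and genes of the lists, marker lists, and loci above (limma contrast over 14 samples, adjusted p of at most 0.05, as for 15.7% of all genes). Genotype, culture, sex balance, and the named rows of the libraries separate the experiments, and these cannot be told apart. Each library of the first held 36704 to 38572 named rows, and each of the second 24363 to 25130. Among the members this held for Cd4 (-0.43) and Tox (-0.44), and of the targeted genes for Hdac2 (-0.89). Among the regulators it held for Runx3 (1.31), Satb1 (1.14), Tcf3 (0.30), Cbfb (-0.38), and Tcf12 (-0.32). Among the receptor partners it held for Lag3 (0.95), Cd3e (-0.62), Cd3d (-0.59), Cd5 (-0.50), Fyn (-0.45), Cd28 (-0.36), and Ptprc (-0.28), and among the neighbors of the coreceptor loci for Pianp (2.12), Gpr162 (1.19), Mlf2 (0.46), and Krcc1 (-0.57). Among the markers of other cell types it held for Cd79b (2.22) and Zbtb46 (1.28). Genes picked for their likeness to a member were not counted. The contrast tested 5 members, 19 regulators, 8 TOX and Ikaros genes, and 15 receptor partners. It also tested 18 neighbors of Cd4 and 4 of the CD8 genes, besides the targeted and marker genes. These lists overlap, so the 21 genes were not set against the share of all genes.

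Loci without a name at the Cd4 gene carried signal in mutant libraries and in 0 of 7 WT libraries. Upstream of Cd4 the highest value was 111 FPKM in HDAC1cKO-HDAC2HET and 41.1 FPKM in HDAC1cKO cells, and the locus was present in 6 of 7 mutant libraries. In the first intron the highest value was 27.0 FPKM, in HDAC1cKO-HDAC2HET cells, and the locus was present in 3 of 7 mutant libraries. No sample of the 22 groups of 4 values examined lay far enough from the other 3 to be singled out.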

How the results depend on the processing

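Of 393 repeated values, 339 were labeled the same. For a gene or ratio this means the same direction and the same side of the threshold. The 393 also include counts of members passing, where a small change of the count was still labeled the same. Fits with the joined Patz1 locus added are included too, and they left the members' differences unchanged. In the HDAC1cKO-HDAC2HET comparison all 5 measured members kept their direction and an adjusted p of at most 0.05 under each alternative that could test them. With named rows only, the count was 1, since Cd8a alone was listed by name in all 8 samples. In the HDAC1cKO comparison the joint fit raised the count from 0 to 2, with Cd8a at 1.36 and Tox at -0.50. The share of all genes passing in the joint fit was not counted. The sex covariate set the HDAC1cKO samples against WT replicate 2 alone in this comparison. Cd4 reversed there to -0.065 with sample weights and to -0.16 with the sex covariate. It ran from -0.089 to 0.17 over the fits that left out 1 sample. The cause was not tested.

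The difference between the experiments depended most on the processing. The count of members passing was 1 without a filter or without a variance trend, 0 with the replicate block, and 0 to 2 when 1 sample was left out. Cd4 was -0.43 without a filter, without a trend, and with the replicate block, and -0.21 with a sex covariate, none of which passed. Tox was -0.44 with the block and -0.45 with the sex covariate and did not pass. Cd8b1 passed at 0.74 with a pseudocount of 1. With a sex covariate Cd4 was -0.21 and Tox -0.45, and Cd8a reversed to -0.040 and Ikzf1 to 0.093. These values rest on WT replicate 2 of the second experiment alone, a library with 0.5 fragments of Cd8a. With sample weights Ikzf1 reversed to 0.0088. Leaving out 1 sample gave -0.54 to -0.29 for Cd4, 0.11 to 0.62 for Cd8a, 0.65 to 0.93 for Cd8b1, -0.51 to -0.39 for Tox, and -0.14 to 0.045 for Ikzf1.

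The Cd8a to Cd8b1 ratio reversed with a pseudocount of 1 (-0.85 and -0.27 in the 2 experiments). That pseudocount exceeds every Cd8a value, so the ratio then mostly follows Cd8b1. It was 1.27 with a pseudocount of 0.01 in HDAC1cKO-HDAC2HET cells. For the Cd4 to Cd8a ratio the replicate block kept the value of -2.14 but allows no p below 0.125. Beside this ratio and the calls of Cd4 and Tox in the contrast between experiments, the block changed no call. A sex covariate could not be fitted in the first experiment, and named rows only left no member in the second or in the contrast. Depth limits Cd8a most, with WT values of few fragments.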
